A study of Mus musculus with 2 samples.

Results

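The secretory-scored day 3 cells were the 55 cells, of 798 cells in a day 3 library of mouse intestinal organoids and 1863 cells in the whole series, with the highest mean of the deposited log2 values over 9 genes. Those genes were Atoh1, Spink4, Tff3, Agr2, Fcgbp, Lyz1, Neurog3, Chgb and Insm1. They were compared with the other 743 day 3 cells by counts of unique molecular identifiers (UMIs), each of which stands for 1 captured transcript. The donor mice were C57BL/6, wild type and 10 weeks old. Organoids, epithelial cultures in a gel, were grown with 100 ng/ml EGF, 100 ng/ml Noggin and 500 ng/ml R-spondin. Until day 3 the medium also held Y-27632, which inhibits ROCK, at 10 µM and Wnt3a-conditioned medium at 20%. CHIR99021, which inhibits GSK3B, was added at 3 µM until day 1. All day 3 cells share this medium, so no treatment differs between the compared cells. A day 5 library, used here only for values set side by side, came from organoids of the same strain and age that had the growth factors alone from day 3 on. The sources used here do not say how many mice or cultures went into each library.

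Intestinal secretory cells arise from dividing progenitors in the crypt. A progenitor that turns on the basic helix-loop-helix factor Atoh1 shows the Notch ligand Dll1 to its neighbours, and Notch signalling in those neighbours, acting through Hes1, keeps Atoh1 off. Goblet cells release mucins and their partner proteins, Paneth cells release lysozyme and defensins and feed the stem cells beside them, and enteroendocrine cells, which pass through a brief stage with Neurog3, release hormones.

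The score and the comparison below use the same cells and the same counts, so every difference between the secretory-scored and the other day 3 cells is a description, with no test. Each day is also a single library. CPM below means UMIs summed over a group of cells and scaled to a total of 1000000, ranges after a CPM are exact Poisson 95% intervals, and these cover counting error only. Where a count is 0, the limit given is that of 3 counts. Depth was alike in both groups. The secretory-scored cells held 1969766 UMIs with a median of 32857 per cell (18475 to 75365), with 4891 detected genes in the median cell and 4.79% of UMIs from mitochondrial genes. The other day 3 cells held 26794267 UMIs with a median of 32040 per cell (17601 to 119743), with 5002 detected genes in the median cell and 5.42% of UMIs from mitochondrial genes. Scrublet called 2 of the 798 day 3 cells doublets, none of them secretory-scored. So few calls do not show that doublets were absent.

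The score declined smoothly and had no gap at the limit. It ran from 1.60 to 4.39 with a median of 3.15 in the secretory-scored cells, and from 0 to 1.56 with a median of 0.418 in the other day 3 cells. The last members, at ranks 51 to 55, scored 2.03, 1.91, 1.68, 1.61 and 1.60. The first cells outside, at ranks 56 to 60, scored 1.56, 1.55, 1.50, 1.43 and 1.41.

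**Figure D1:**
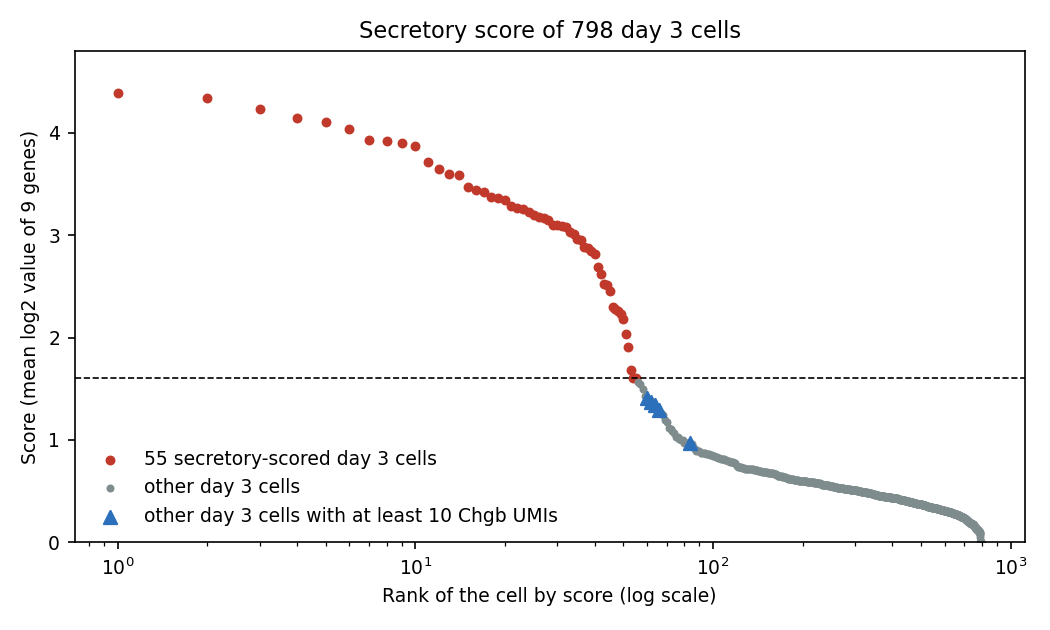
Score of each of the 798 day 3 cells (mean log2 value of 9 genes, vertical axis) against its rank (log scale, horizontal axis). The dashed line marks the lowest secretory-scored cell at 1.60, and the 5 triangles are cells outside the 55 with at least 10 Chgb UMIs, at ranks 60 to 84.

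The goblet and Paneth genes of the score carried it. Tff3, a trefoil peptide of goblet cell mucus (chr17:31125306-31129646), had 11 to 1698 UMIs per secretory-scored cell with a median of 370, against 0 to 294 with a median of 3 in the other day 3 cells. Summed, this was 11368 CPM (11219 to 11518) in the secretory-scored cells and 212 CPM (206 to 217) in the other cells, a log2 ratio of 5.75. Spink4, a peptide secreted by goblet cells (chr4:40920052-40931395), had a median of 111 UMIs (0 to 896) per secretory-scored cell and of 1 (0 to 13) per other cell, a log2 ratio of 6.71. Agr2, an endoplasmic reticulum disulfide isomerase needed to fold Muc2 (chr12:35992907-36004087), had a median of 97 UMIs (0 to 737) per secretory-scored cell and of 1 (0 to 31) per other cell, a log2 ratio of 6.06. Fcgbp, a protein of the mucus gel (chr7:28071236-28120862), had a median of 28 UMIs (0 to 207) per secretory-scored cell and of 0 (0 to 23) per other cell, a log2 ratio of 6.50. The highest of the other cells thus lay below the secretory-scored median for these 4 genes, but the groups overlapped for each of them.

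Lyz1, the lysozyme of Paneth cells (chr10:117287797-117292868), was unevenly spread, with a median of 2 UMIs and up to 190 per secretory-scored cell, against a median of 0 and up to 4 per other cell. Its log2 ratio was 6.36, and the 10 richest cells held 81.3% of the secretory-scored UMIs. Its close copy Lyz2 was counted at only 2 UMIs in the secretory-scored and 0 in the other cells. How reads that match both genes were counted was not tested. Atoh1, the factor that starts the secretory fate (chr6:64729125-64731245), gave 92 UMIs in 37 secretory-scored cells, at most 9 per cell, and 16 UMIs in 15 of the other cells, at most 2 per cell. This was 46.7 CPM (37.7 to 57.3) in the secretory-scored cells and 0.597 CPM (0.341 to 0.970) in the other cells, a log2 ratio of 6.25.

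The 3 endocrine genes of the score behaved unlike the rest and unlike each other. Neurog3, the factor that commits cells to the endocrine fate (chr10:62133090-62134763), had 113 UMIs in 10 secretory-scored cells, at most 30 per cell, against 12 UMIs in 8 of the other cells, at most 3 per cell, a log2 ratio of 6.95. Insm1, an endocrine zinc finger factor (chr2:146221921-146225020), had 48 UMIs in 7 secretory-scored cells and 25 UMIs in 15 of the other cells. Chgb, a granin of hormone granules (chr2:132781278-132795079), went against the score. It had 11 UMIs in 7 secretory-scored cells, at most 5 per cell, and 502 UMIs in 83 of the other cells, at most 147 per cell. That was 5.58 CPM (2.79 to 9.99) in the secretory-scored cells and 18.7 CPM (17.1 to 20.4) in the other cells, a log2 ratio of -1.68. The score chose the 55 cells by its goblet and Paneth genes, so their high values cannot test the label of a secretory lineage. A score without Neurog3 chose the same 55 cells, so the higher Neurog3 level was not set by that gene's own place in the score. The cells rich in Chgb lay outside the 55.

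Leaving Atoh1, Neurog3, Chgb or Insm1 out of the score, 1 at a time, returned the same 55 cells. So did a score of Spink4, Tff3, Agr2, Fcgbp and Lyz1 alone, which was tried after the data had been seen. Leaving out Agr2 kept 54 of the 55 cells, and leaving out Spink4, Tff3, Fcgbp or Lyz1 kept 53. A mean of z-scores, in which each gene weighs alike, kept 50 of the 55 and put all 5 Chgb-rich cells among the highest 55.

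Atoh1 and Neurog3 belong to the class of factors that bind E-boxes, short DNA motifs of which CAGCTG is one form. Promoters of 3 genes described here are shown because that motif lies in the 250 bases before their start, picked after the matches were seen. They are Neurog3 at chr10:62132840-62133089 on the plus strand, Muc2 at chr7:141690090-141690339 on the plus strand and Hepacam2 at chr6:3494499-3494748 on the minus strand, from RefSeq on build GRCm38.p6. Each is written 5′ to 3′ on the gene's own strand, and capitals mark CAGCTG, which reads the same on both strands.
Neurog3: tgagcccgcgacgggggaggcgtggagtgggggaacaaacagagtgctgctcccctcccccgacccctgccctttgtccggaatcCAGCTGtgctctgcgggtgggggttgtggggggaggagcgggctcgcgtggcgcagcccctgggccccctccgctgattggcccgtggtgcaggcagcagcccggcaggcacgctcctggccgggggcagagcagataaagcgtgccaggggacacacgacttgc
Muc2: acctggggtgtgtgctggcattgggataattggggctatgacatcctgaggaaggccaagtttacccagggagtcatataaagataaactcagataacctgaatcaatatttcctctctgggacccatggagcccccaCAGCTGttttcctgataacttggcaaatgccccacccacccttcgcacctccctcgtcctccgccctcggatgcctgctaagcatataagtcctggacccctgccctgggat
Hepacam2: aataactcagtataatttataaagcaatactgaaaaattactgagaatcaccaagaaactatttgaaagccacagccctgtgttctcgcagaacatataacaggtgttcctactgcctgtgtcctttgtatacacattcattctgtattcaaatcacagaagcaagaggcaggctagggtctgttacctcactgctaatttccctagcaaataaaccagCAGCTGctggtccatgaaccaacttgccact
The first base of the motif lay at position -165 of Neurog3, -112 of Muc2 and -31 of Hepacam2, counted from the start. The RefSeq start used for Hepacam2 lies inside the gene's GENCODE M21 position, chr6:3457096-3498298. Of the 9 score genes, 6 had a promoter in the table, and 2 of them, Fcgbp and Neurog3, held the motif. Of the 15 highest genes named below, 9 had a promoter, and 4 of them, Ccl9, Muc2, Sval1 and Ghrl, held it. For comparison, 14.7% of the 27025 genes with a RefSeq promoter held it in at least 1 promoter. A match is a string of letters and not a measured binding site.

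Of 9458 genes with at least 100 UMIs over all day 3 cells, 168 were at least 2-fold higher in the secretory-scored cells, which is 1.78%, and 306 were at least 2-fold lower, which is 3.24%. The median log2 ratio of the 9458 genes was -0.09. Each list count below is to be read beside these shares of 1.78% and 3.24%. Goblet and Paneth genes had the highest list medians in this comparison. Of 15 goblet genes with that minimum, 14 were at least 2-fold higher, 0 were at least 2-fold lower, and the list's median log2 ratio was 5.49. Of 9 Paneth genes, 8 were at least 2-fold higher and 0 lower, with a median of 5.46. These lists were chosen with earlier results of the same data known, and their genes share cells with the score.

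Tpsg1, a membrane-bound tryptase (chr17:25369273-25374442), had the highest ratio of the named genes. It had up to 14 UMIs per cell in 40 secretory-scored cells and was found in 7 of the other 743 cells, at 84.8 CPM (72.4 to 98.7) in the secretory-scored cells and 0.261 CPM (0.105 to 0.538) in the other cells. Its log2 ratio was 8.25. Ccl9, a chemokine, was also found in 40 secretory-scored cells, at 129 CPM (114 to 146), against 18 of the other cells at 0.709 CPM (0.427 to 1.11), a log2 ratio of 7.47. Clca1, a metalloprotease of mucus (chr3:145003817-145032776), stood at 379 CPM (352 to 407) in the secretory-scored cells and 2.13 CPM (1.61 to 2.76) in the other cells, a log2 ratio of 7.46. Muc2, the gel-forming mucin of the intestine (chr7:141690340-141754693), stood at 96.5 CPM (83.2 to 111) in the secretory-scored cells and 0.784 CPM (0.485 to 1.20) in the other cells, a log2 ratio of 6.91. Of all day 3 UMIs, the 55 cells held 90.0% for Muc2 and 92.9% for Clca1.

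Other goblet genes followed. Rep15, a Rab15 effector, had a log2 ratio of 6.40, and Zg16, a lectin that binds bacteria, of 5.64, with 41.4% of its secretory-scored UMIs in 1 cell. Reg4, a secreted lectin found in goblet and endocrine cells, stood at 411 CPM (383 to 441) in the secretory-scored cells and 4.11 CPM (3.37 to 4.95) in the other cells, a log2 ratio of 6.64. Guca2a, the peptide guanylin, had a log2 ratio of 5.49 and Creb3l1, a transcription factor of secretory cells, of 4.44. The lowest goblet genes were Bace2, a protease, at 1.60 and Gcnt3, a mucin glycosyltransferase, at 0.66. Gcnt3 was the 1 gene of the 15 that did not reach 2-fold. Spdef, a factor needed for goblet maturation, fell below the minimum with 73 UMIs in the secretory-scored and 8 in the other cells. It is outside the rule for named genes and was picked after its values were seen.

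Paneth genes reached like ratios. Defa24, an alpha-defensin (chr8:21734494-21735471), had a median of 14 UMIs and up to 2012 per secretory-scored cell, against a median of 1 and up to 16 per other cell. This was 5398 CPM (5296 to 5502) in the secretory-scored cells and 48.2 CPM (45.6 to 50.9) in the other cells, a log2 ratio of 6.81. It was found in 49 of the 55 cells, and the 10 richest cells held 78.9% of the secretory-scored Defa24 UMIs, against 81.6% for Clca1. Defa3 had a log2 ratio of 7.94 and Defa17 of 5.82. Defensin genes are near copies of each other, so the split of reads among them is uncertain. Mmp7, the protease that activates defensins in mouse Paneth cells, stood at 258 CPM (236 to 282) in the secretory-scored cells and 3.06 CPM (2.43 to 3.80) in the other cells, a log2 ratio of 6.39.

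Defa30 had 128 UMIs in 6 secretory-scored cells and 6 UMIs in 6 of the other cells, but 51.6% of the 128 lay in 1 cell. Guca2b, the peptide uroguanylin, had a log2 ratio of 3.89. Nupr1, a stress-induced chromatin protein, was the 1 Paneth gene of 9 that did not reach 2-fold, at -0.08. Rnase1, a secreted ribonuclease outside the list, had a log2 ratio of 6.44. Other genes among the 15 highest were Sval1, at 6.90 with 92 UMIs in 17 secretory-scored cells, and Ramp1, a receptor-modifying protein, at 6.09.

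**Figure D2:**
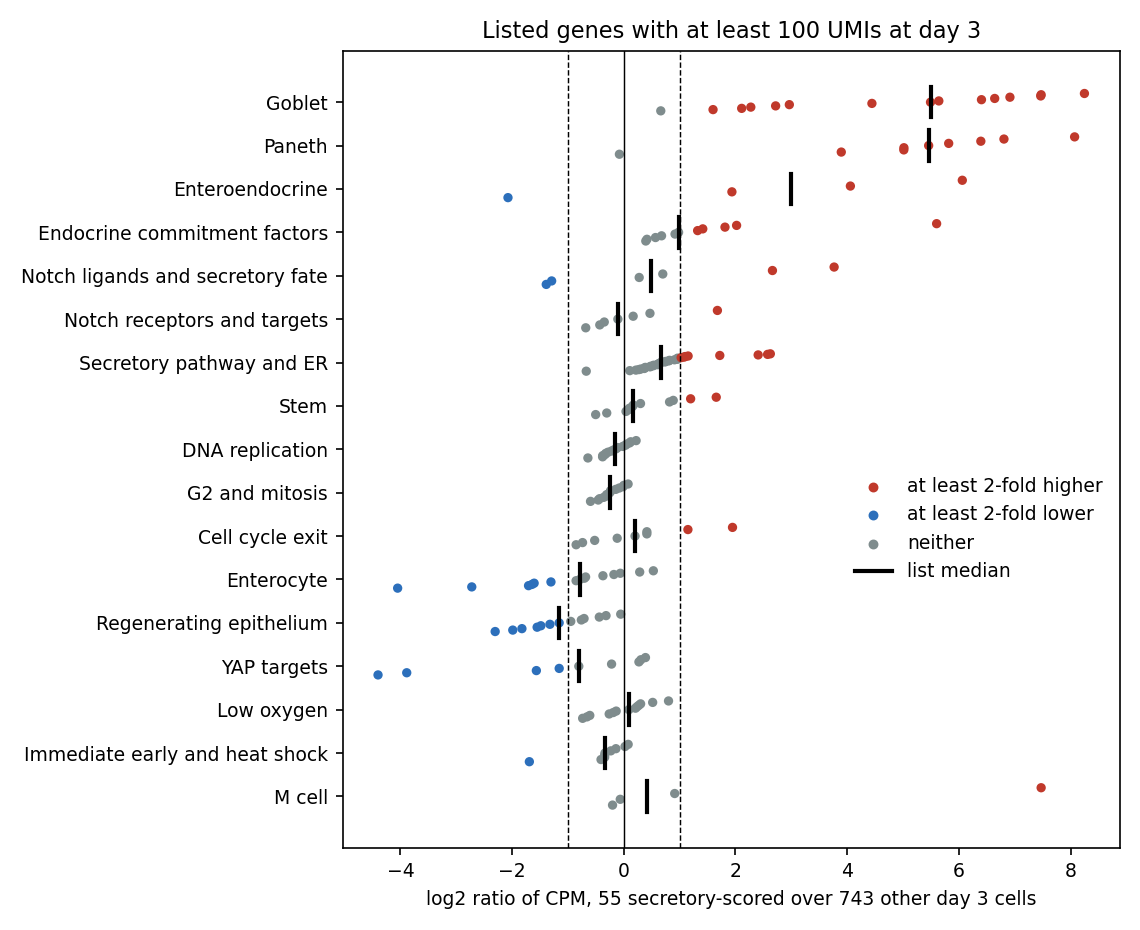
Log2 ratio of CPM, 55 secretory-scored over 743 other day 3 cells, for listed genes with at least 100 UMIs at day 3 (points), by gene list (rows). Black bars are list medians and dashed lines mark 2-fold. The goblet and Paneth medians lie at 5.49 and 5.46, and those of the regenerating epithelium and enterocyte lists at -1.16 and -0.79.

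The secretory-scored cells were not alike. Clca1 reached 10 UMIs in 14 cells and Defa24 reached 50 UMIs in 22 cells, and 1 cell met both limits. The other 20 cells met neither. Both limits were set after the values were seen, and 7 cells lay at 5 to 15 Clca1 UMIs and 4 at 25 to 75 Defa24 UMIs. The groups also differed in depth, with a median of 27813 UMIs in the 13 cells rich in Clca1 alone, 41146 in the 21 cells rich in Defa24 alone and 27095 in the cells with neither. Cell types cannot be read from these limits, and the values below describe ranges of cells.

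Goblet and Paneth genes followed Clca1 and Defa24. The 13 Clca1-rich cells held 276 CPM of Muc2 (229 to 329), against 53.9 CPM (39.8 to 71.5) in the 21 Defa24-rich cells. Zg16 stood at 952 CPM (863 to 1047) in the Clca1-rich and 91.0 CPM (72.3 to 113) in the Defa24-rich cells. Both values rest largely on 1 cell. The cell at rank 3 held 230 of the 421 Zg16 UMIs of the Clca1-rich cells, and that at rank 37 held 76 of the 81 of the Defa24-rich cells. Rep15 stood at 283 CPM (235 to 337) in the Clca1-rich and 15.7 CPM (8.60 to 26.4) in the Defa24-rich cells. Agr2 stood at 9720.4 CPM (9432 to 10015) in the Clca1-rich cells and 1800.1 CPM (1713 to 1890.4) in the Defa24-rich cells. Spink4 differed less, with 6748 CPM (6508 to 6994) in the Clca1-rich and 3704 CPM (3578 to 3832) in the Defa24-rich cells. The score genes Spink4 and Tff3 were thus abundant in both sets.

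In the other direction, Lyz1 stood at 18.1 CPM (7.81 to 35.6) in the Clca1-rich and 534 CPM (487 to 584) in the Defa24-rich cells. Rnase1 had 2 UMIs, or 4.52 CPM (0.548 to 16.3), in the Clca1-rich cells and 226 UMIs, or 254 CPM (222 to 289), in the Defa24-rich cells. Reg4, listed among goblet genes, was lower in the Clca1-rich cells, at 122 CPM (91.7 to 159), than in the Defa24-rich cells, at 701 CPM (647 to 758). Guca2a went the same way, at 120 CPM (89.7 to 157) in the Clca1-rich and 346 CPM (309 to 387) in the Defa24-rich cells. Mmp7 stood at 129 CPM (97.6 to 167) in the Clca1-rich and 424 CPM (382 to 469) in the Defa24-rich cells.

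Other genes differed between the sets in both directions, and they were picked after their values were seen. Lgr5, the receptor that marks crypt stem cells, had 1 UMI, or 2.26 CPM (0.0572 to 12.6), in the Clca1-rich cells and 52 UMIs, or 58.4 CPM (43.6 to 76.6), in the Defa24-rich cells. Sox9, a factor of progenitor and Paneth cells, stood at 47.5 CPM (29.4 to 72.6) in the Clca1-rich and 121 CPM (99.5 to 147) in the Defa24-rich cells. Cdkn1a, an inhibitor of the cell cycle, went the other way, at 280 CPM (233 to 334) in the Clca1-rich and 82.0 CPM (64.3 to 103) in the Defa24-rich cells. It was found in all 13 Clca1-rich cells, but of their 124 UMIs the cells at ranks 30 and 25 held 37 and 27. The cell at rank 30 also held 9 Neurog3 UMIs. Mki67, a protein of dividing cells, differed by less than its intervals, at 129 CPM (97.6 to 167) in the Clca1-rich and 116 CPM (94.5 to 140) in the Defa24-rich cells. The chaperone Txndc5 stood at 821 CPM (738 to 909) in the Clca1-rich and 212 CPM (183 to 245) in the Defa24-rich cells.

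**Figure D3:**
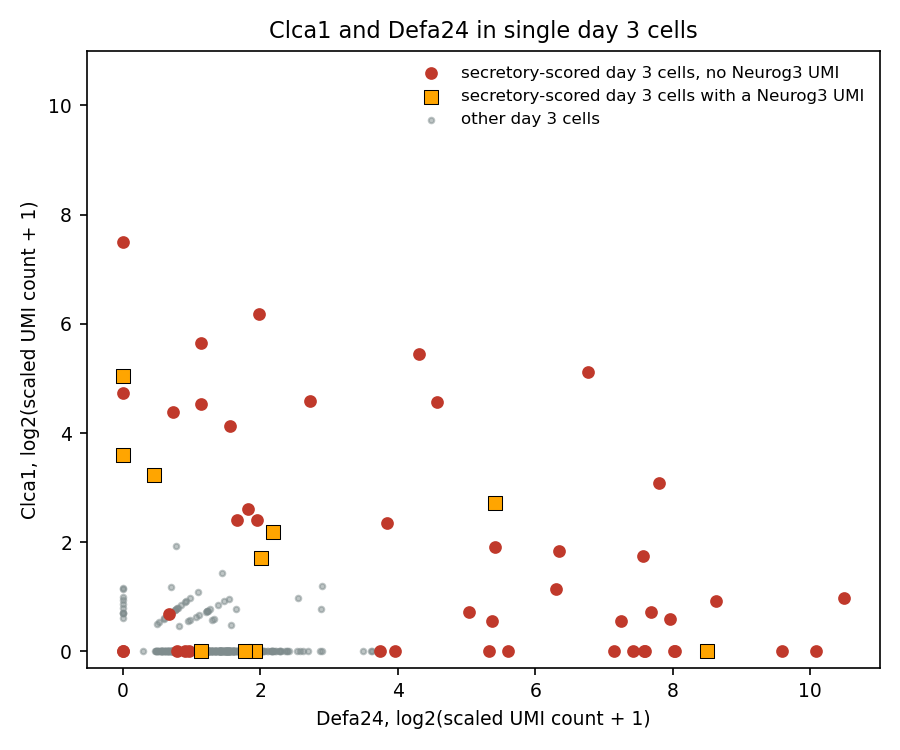
Clca1 (vertical axis) against Defa24 (horizontal axis) in each day 3 cell, as the deposited log2 of the scaled UMI count plus 1. Red points and orange squares are the 55 secretory-scored cells, squares those 10 with a Neurog3 UMI, and grey points the other 743 day 3 cells. Most cells high in Clca1 are low in Defa24 and the reverse, and 1 cell met both limits of 10 Clca1 and 50 Defa24 UMIs.

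Over the 55 cells, the deposited log2 values of mucus genes went together, as did those of Paneth genes. These correlations are descriptions, since all cells come from 1 library, differ in depth and were chosen by some of these genes. Clca1 had a Pearson r of 0.66 with Muc2 (Spearman rho 0.57) and of 0.71 with Fcgbp (0.67). Defa24 had an r of 0.85 with Defa17 (0.80) and of 0.72 with Rnase1 (0.69), and Reg4 of 0.75 with Mmp7 (0.73). Across the sets, Clca1 had an r of -0.53 with Rnase1 (-0.53) and of -0.49 with Lyz1 (-0.55). Other pairs did not share that sign or size. Muc2 had an r of -0.10 with Defa24 (-0.09), -0.03 with Defa17 (0.03) and 0.41 with Itln1 (0.35), and Spink4 had an r of 0.35 with Defa24 (0.28). Atoh1 had an r of 0.61 with Agr2 (0.65), 0.49 with Tff3 (0.50) and 0.01 with Lyz1 (-0.10).

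**Figure D4:**
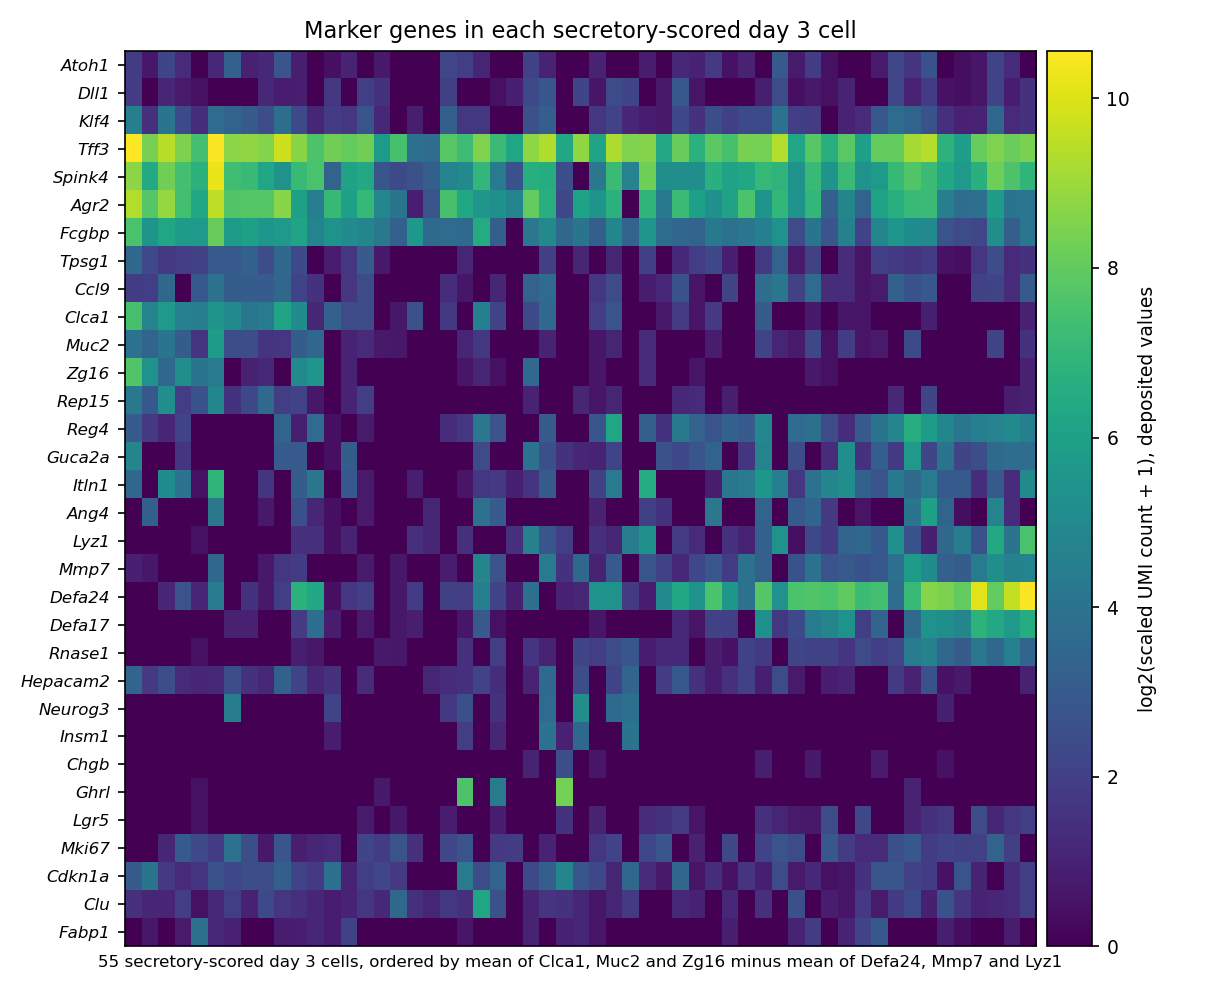
Deposited log2 values of marker genes (rows) in each of the 55 secretory-scored day 3 cells (columns), ordered by the mean of Clca1, Muc2 and Zg16 minus the mean of Defa24, Mmp7 and Lyz1. Mucus genes are high at the left and Paneth genes at the right, Tff3 is found in all 55 cells, and Neurog3 appears in 10 cells.

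Cells with Neurog3 were few. Tff3 was found in all 55 cells and Spink4 in 54, since the score chose them, so their overlap with Neurog3 is fixed by the choice. Of the 10 secretory-scored cells with a Neurog3 UMI, 9 also held Spink4 and Tff3, 10 held Hepacam2, 8 Dll1, 6 Insm1 and 5 Atoh1. Of the same 10, 3 reached 10 Clca1 UMIs and 1 reached 50 Defa24 UMIs. Over all 55 cells, Hepacam2 was found in 41, Dll1 and Atoh1 in 37 each and Insm1 in 7. By level, Neurog3 stood at 97.2 CPM (70.3 to 131) in the 13 Clca1-rich cells, 2.25 CPM (0.272 to 8.12) in the 21 Defa24-rich cells and 112 CPM (86.8 to 142) in the 20 cells with neither. The cell at rank 2 of the score illustrates the overlap, with 12 Neurog3, 15 Insm1, 11 Hepacam2, 629 Tff3 and 91 Spink4 UMIs in 24561. Whether such a cell is 1 cell or a doublet was not tested beyond the Scrublet call.

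In the secretory-scored cells, transcripts of the hormones Ghrl and Cck lay mostly in very few cells, and those of Sct did not. Ghrl, the hormone ghrelin, had a log2 ratio of 6.06, but it was found in 6 secretory-scored cells, and 3 of them, at ranks 20, 43 and 49, held 345, 50 and 340 UMIs. The cells at ranks 20 and 43 also held 9 and 5 Neurog3 UMIs. The cell at rank 49 held none, with 421 Cck and 27 Chga UMIs. It held 94.6% of the secretory-scored Cck UMIs, and Cck, the hormone cholecystokinin, had a log2 ratio of 1.94. Without the richest secretory-scored cell the Cck ratio was -2.23. Sct, the hormone secretin, was more widely spread, with 87 UMIs in 40 secretory-scored cells, against 71 UMIs in 46 of the other cells, a log2 ratio of 4.06. Gcg, the glucagon precursor, had 4 UMIs in the secretory-scored and 257 in the other cells, a log2 ratio of -2.07. Of 4 enteroendocrine genes with the minimum, 3 were thus at least 2-fold higher and Gcg lower.

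The 5 day 3 cells outside the 55 with at least 10 Chgb UMIs ranked 60, 62, 64, 66 and 84, and held 147, 10, 76, 116 and 67 Chgb UMIs. Of all day 3 Chgb UMIs the 55 secretory-scored cells held 2.14% and these 5 cells 81.1%. Of Gcg the 55 held 1.53% and the 5 cells 82.0%, and of Cck the 55 held 21.9% and the 5 cells 60.9%. The cell at rank 64 held 1235 Cck, 214 Gcg and 50 Pyy UMIs. These 5 cells held 0 Lyz1, 2 Fcgbp, 5 Spink4 and 107 Tff3 UMIs in sum. With the 5 cells added to the 55, an alternative chosen once the values were known, the Chgb log2 ratio was 5.86 and that of Gcg 5.89. The signs of the Chgb, Gcg and Cck ratios thus depended on which few cells were counted as members. Taking the 70 highest cells also turned Chgb, to 4.55.

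Factors of endocrine commitment were higher in the secretory-scored cells in part. Of 11 with the minimum, 5 were at least 2-fold higher and 0 lower, with a list median of 0.98. The shares over all genes were 1.78% higher and 3.24% lower. Hepacam2, an adhesion molecule seen in tuft and early endocrine cells, had 144 UMIs in 41 secretory-scored cells and 40 UMIs in 25 of the other cells, a log2 ratio of 5.60. Hepacam2 was found in all 13 Clca1-rich cells, at 147 CPM (113 to 187), against 38.2 CPM (26.5 to 53.4) in the 21 Defa24-rich cells. The 20 cells with neither held 67.4 CPM (48.4 to 91.5), so the Hepacam2 ratio cannot be read as endocrine commitment alone. Cbfa2t3, a corepressor, had a ratio of 2.02, and Foxa2, a pioneer factor of gut endoderm, of 1.81. Sox4, a factor of early endocrine cells, stood at 1.41 and Rcor2 at 1.32. The lowest were Rfx3 at 0.42 and Cbfa2t2 at 0.39.

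Among the 55, 8 cells had a UMI of at least 2 of Neurog3, Chgb and Insm1. The cell at rank 40 met this with 2 Neurog3 UMIs and 1 Chgb UMI. A Chgb UMI was found in 12.7% of the secretory-scored and 11.2% of the other day 3 cells. That cell also held 821 Defa24 UMIs, 97.7% of those in the 8 cells, so the 8 cells were not alike. Of 4103 genes with at least 50 UMIs over the 55 cells, 57 were at least 2-fold higher in these 8 cells than in the other 47, which is 1.39%, and 150 were at least 2-fold lower, which is 3.66%. Ghrl led with 735 UMIs in the 8 and 3 in the other 47 cells. Sox4 had 266 UMIs in the 8 cells and 222 in the other 47, a log2 ratio of 2.61, and Cdkn1a had 146 in the 8 cells and 189 in the other 47, a ratio of 1.98. Maged1 followed at 1.58, Tox3 at 1.53, Pex7 and Marcksl1 at 1.43, Adh1 at 1.42, Mcrip1 at 1.37 and Bms1 at 1.33. Counts of these genes in the 8 cells were small, from 18 UMIs for Bms1 to 60 for Marcksl1. Their counting intervals all began below 2-fold, from 0.41 for Bms1 to 0.95 for Marcksl1. The median depth was 35263 UMIs in the 8 cells and 32857 in the 47. Among goblet and Paneth genes, Spink4 had 424 UMIs in the 8 cells and 7380 in the other 47, a log2 ratio of -1.77, and Itln1, an intelectin, a ratio of -2.35. Of the 8 cells' UMIs, the cell at rank 40 held 42.0% for Spink4 and 53.3% for Itln1.

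Notch ligands split in the secretory-scored cells. Dll1, the ligand that Atoh1-expressing progenitors show their neighbours (chr17:15367354-15376872), had 83 UMIs in 37 secretory-scored cells, at most 6 per cell, against 179 UMIs in 144 of the other cells, a log2 ratio of 2.66. Klf4, a factor needed for goblet cells in the mouse colon, stood at 144 CPM (128 to 162) in the secretory-scored and 10.6 CPM (9.40 to 11.9) in the other cells, a log2 ratio of 3.77. Jag1, a ligand of another class, had 8 UMIs in the secretory-scored and 302 in the other cells, a log2 ratio of -1.39. Jag2 had 3 UMIs in the secretory-scored and 116 in the other cells, a ratio of -1.29 with a counting interval of -3.81 to 0.08. The ligands Dll4 and Dll3 fell below the minimum. Dll4 had 23 UMIs in the secretory-scored and 8 in the other cells, and Dll3 had 4 and 1. Both are outside the rule for named genes and were picked after their values were seen. Sox9 had a ratio of 0.70. Of 6 genes of ligands and fate with the minimum, 2 were thus at least 2-fold higher and 2 lower, against 1.78% higher and 3.24% lower over all genes.

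Of 7 genes that receive or report Notch signals 1 was at least 2-fold higher and 0 lower, with a median of -0.11. Against 1.78% higher and 3.24% lower over all genes, counts this small say little of the list. Lfng, a glycosyltransferase that alters Notch receptors, had a log2 ratio of 1.68 from 21 UMIs in the secretory-scored and 91 in the other cells. Hes1, the repressor induced by Notch, stood at 100 CPM (86.5 to 115) in the secretory-scored and 135 CPM (131 to 139) in the other cells, a ratio of -0.43. Notch2 had a ratio of -0.68, Rbpj of 0.47 and Nrarp of 0.17.

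Cells with a UMI of the fate genes overlapped the 55 in part. Of 52 day 3 cells with an Atoh1 UMI 37 were secretory-scored, or 71.2% of those cells and 67.3% of the 55. Of 181 day 3 cells with a Dll1 UMI 37 were secretory-scored, or 20.4% of those cells and 67.3% of the 55. Both genes were found in 25 of the 55 cells. Of 18 cells with a Neurog3 UMI 10 were secretory-scored, or 55.6% of those cells and 18.2% of the 55. The score itself used Atoh1 and Neurog3 but not Dll1. The share of the other cells with a Dll1 UMI is given below, beside that of enterocyte-scored cells. Whether the other cells with a Dll1 UMI express it was not tested.

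Shares of cells with a UMI depend on depth and on free RNA, so each cell was also thinned at random to 17000 UMIs, which left out 0 cells. Atoh1 was then found in 47.3% of the secretory-scored cells (exact 33.7 to 61.2), against 67.3% unthinned, and in 0.673% of the other cells (0.219 to 1.56), against 2.02% unthinned. Tpsg1 was found in 58.2% of the secretory-scored and 0.404% of the other cells after thinning. Before thinning it was found in 72.7% of the secretory-scored and 0.942% of the other cells. Dll1 was found in 49.1% of the secretory-scored and 8.88% of the other cells after thinning, against 67.3% of the secretory-scored and 19.4% of the other cells before. In the enterocyte-scored cells described next, Dll1 was found in 9.09% after and 14.5% before thinning. For a background, the 55 other day 3 cells with the highest mean of 6 enterocyte genes were used, at a median depth of 24567 UMIs, against 32857 in the secretory-scored cells. After thinning, Tpsg1 and Muc2 were found in 0 of these 55 cells, which allows a share of cells with a UMI of up to 5.45% for each (3 cells of 55), and Atoh1 in 1 cell.

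Defa24 and Spink4 behaved differently. After thinning, Defa24 was found in 78.2% of the secretory-scored cells, 53.2% of the other cells and 56.4% of the enterocyte-scored cells. Before thinning it was found in 89.1% of the secretory-scored, 77.8% of the other and 70.9% of the enterocyte-scored cells. Spink4 was found after thinning in 98.2% of the secretory-scored, 44.0% of the other and 56.4% of the enterocyte-scored cells, and before thinning in 98.2%, 68.1% and 72.7% of these groups. Single UMIs of these genes outside the secretory-scored cells are at the level of this background and are not read as expression.

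Of 33 genes of protein folding and transport through the endoplasmic reticulum, 8 were at least 2-fold higher and 0 lower, with a median log2 ratio of 0.66. Pdia5 and Txndc5, disulfide isomerases, had ratios of 2.62 and 2.57, and Dnajc10, a reductase that acts with chaperones, had 2.41. Txndc5 was found in all 55 secretory-scored cells with 2 to 66 UMIs each. The lowest were Sec61a1, the channel of the endoplasmic reticulum, at 0.11 and Ern1, a sensor of unfolded proteins, at -0.67 from 4 UMIs in the secretory-scored and 97 in the other cells. The other 5 genes past 2-fold were Qsox1, Sdf2l1, Manf, Dnajb9 and Pdia6, at 1.03 to 1.72.

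Of 12 stem cell genes with the minimum, 2 were at least 2-fold higher and 0 lower, with a median of 0.16. Beside 1.78% higher and 3.24% lower over all genes, counts this small say little of the list. Gkn3, a gastrokine of intestinal stem cells in the mouse, had a log2 ratio of 1.66, Lgr5 of 1.20 and Axin2, a Wnt target, of 0.89. Lgr5 had 66 UMIs in 24 secretory-scored cells, 52 of these UMIs in the Defa24-rich cells, and 394 UMIs in 189 of the other cells. The lowest were Cdk6 at -0.30 and Ascl2, a stem cell factor, at -0.50.

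Transcripts of dividing cells were found in the secretory-scored as in the other day 3 cells. Mki67 was found in 41 of the 55 cells, with a median of 4 UMIs over the 55 and up to 16 per cell, at 117 CPM (103 to 133), against 138 CPM (134 to 143) in the other day 3 cells, a log2 ratio of -0.24. After thinning it was found in 72.7% of the secretory-scored and 75.1% of the other cells, against 74.5% of the secretory-scored and 82.6% of the other cells before. After thinning it was found in 22 of the 55 enterocyte-scored cells. None of 14 genes of G2 and mitosis and none of 16 genes of DNA replication was 2-fold higher or lower, with medians of -0.25 and -0.16, and counts of 0 are near the share over all genes. The mitotic genes ranged from Bub1 at 0.08, through Ccnb2 at 0.00 and Ccnb1 at -0.01, to Aurkb at -0.46 and Aurka at -0.60. Of the 37 cells with an Atoh1 UMI, 28 also had a Mki67 UMI. Of replication genes, Mcm4, Mcm7 and Uhrf1 had the highest ratios, at 0.22, 0.12 and 0.11, and Ccne1 and Cdc6 the lowest, at -0.38 and -0.64.

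Of 9 genes of cell cycle exit, 2 were at least 2-fold higher and 0 lower, with a median of 0.20. The shares over all genes were 1.78% higher and 3.24% lower, and so few genes say little of the list. Cdkn1c had a log2 ratio of 1.95 from 26 UMIs in 12 secretory-scored cells and 93 UMIs in the other cells. Cdkn1a stood at 170 CPM (152 to 189) in the secretory-scored and 76.8 CPM (73.5 to 80.2) in the other cells, a ratio of 1.15. Btg1 had a ratio of 0.41, and Ccng1 and Ccng2 the lowest, at -0.74 and -0.85.

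Absorptive genes differed in part. Of 15 enterocyte genes 6 were at least 2-fold lower and 0 higher, with a median of -0.79. Fabp1, a fatty acid carrier of enterocytes, had up to 34 UMIs per secretory-scored cell with a median of 0, at 42.1 CPM (33.6 to 52.2), against 279 CPM (273 to 286) in the other cells, a log2 ratio of -2.72. In the other cells the median was 1 Fabp1 UMI, 1 cell held 23.3% of the Fabp1 UMIs and the 10 richest cells held 53.4%. After thinning, Fabp1 was found in 29.1% of the secretory-scored and 39.2% of the other cells. Fabp2 was on the other side, at 0.53, with Anpep at 0.29 and Vil1, a protein of microvilli, at -0.06. Outside the list, Tm6sf2, a protein of lipid export, had a ratio of -2.39, and Fgf15, a hormone released by ileal enterocytes, had 2 UMIs in the secretory-scored and 327 in the other cells, a ratio of -3.27 with a counting interval of -6.64 to -1.72.

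Of 13 genes of regenerating epithelium 7 were at least 2-fold lower and 0 higher, with a median of -1.16. Clu, a marker of revival stem cells, had a median of 2 UMIs and up to 64 per secretory-scored cell, at 109 CPM (94.6 to 124), against 385 CPM (378 to 393) in the other cells, a log2 ratio of -1.82. The other cells also had a median of 2 Clu UMIs, with up to 652 per cell, and their 10 richest cells held 36.5% of their Clu UMIs. Msln had a ratio of -1.99 and Il1rn, an antagonist of interleukin 1, of -2.30. Both genes had a median of 0 UMIs per cell in the secretory-scored and in the other cells. Sprr2a3 at -0.05, Tnfrsf12a at -0.32 and Krt7 at -0.44 differed least. After thinning, Clu was found in 69.1% of the secretory-scored, 69.6% of the other and 47.3% of the enterocyte-scored cells, against 87.3%, 82.4% and 63.6% of these groups before.

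Of 9 YAP targets 4 were at least 2-fold lower and 0 higher, with a median of -0.80. Amotl1 had 0 UMIs in the secretory-scored and 143 in the other cells, at least 3.50-fold lower when 3 UMIs are put in place of 0 over the 55 cells, and Ankrd1 had 0 in the secretory-scored and 100 in the other cells, at least 2.45-fold lower, with 91% of those 100 in 10 cells. Nuak2 at 0.39, Amotl2 at 0.31 and Ccn1 at 0.27 did not share the direction. Other genes with 0 UMIs in the secretory-scored cells were Cwh43 at 174 UMIs in the other cells, Tnf at 117, Ggta1 at 102 and S100a4 at 100. Cwh43 was thus at least 4.26-fold lower in the secretory-scored cells, Tnf at least 2.87-fold, Ggta1 at least 2.50-fold and S100a4 at least 2.45-fold, with the same 3 UMIs in place of 0.

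None of 13 low oxygen genes reached 2-fold in either direction, with a median of 0.09 that turned to -0.02 at a minimum of 30 UMIs. With 1.78% higher and 3.24% lower over all genes, a count of 0 in a list of this size is near the background. Ndrg1 was highest at 0.80, then Bnip3 at 0.52 and Ddit4 at 0.30, and Ero1l and Egln3 lowest at -0.66 and -0.74. Of 9 immediate early and heat shock genes 1, Hspa1b, was at least 2-fold lower, at -1.69 from 4 UMIs in the secretory-scored cells, while Fos stood at 0.08, Dusp1 at 0.02, Ier2 at -0.14 and Junb at -0.41.

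Markers of tuft, immune, stromal and endothelial cells were at or near 0. Of 13 tuft cell genes in the file 12 were at 0 in the secretory-scored cells, Dclk1, Trpm5 and Pou2f3 among them, and the list summed to 1.02 CPM in the secretory-scored and 5.52 CPM in the other cells. Immune genes summed to 2 UMIs in the secretory-scored and 47 in the other cells, and stromal and endothelial genes to 2 in the secretory-scored and 27 in the other cells. None of these 3 lists had a gene with the minimum. M cell genes were not near 0, summing to 276 CPM in the secretory-scored and 108 CPM in the other cells. Of 4 with the minimum 1 was at least 2-fold higher, Ccl9, which is also on the goblet list. The others were Marcksl1 at 0.91, Anxa5 at -0.06 and Ccl20 at -0.20, and Spib, the M cell factor, was at 0 in the secretory-scored cells.

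The 55 highest-scoring of 1065 day 5 cells, chosen by the same genes, are set beside the day 3 cells. Day, medium and depth differ together, and no test is possible between 2 libraries. The day 5 cells scored 1.19 to 5.16 and held a median of 16687 UMIs, against 32857 at day 3. Atoh1 and Dll1 stood at like levels in both sets of cells. Atoh1 was at 46.7 CPM (37.7 to 57.3) in the day 3 and 44.4 CPM (32.7 to 58.9) in the day 5 cells, with a log2 ratio of day 3 over day 5 of 0.07. Dll1 stood at 42.1 CPM (33.6 to 52.2) in the day 3 cells against 43.5 CPM (32.0 to 57.8) in the day 5 cells. Klf4 differed more, at 144 CPM (128 to 162) in the day 3 and 84.2 CPM (67.8 to 103) in the day 5 cells, a ratio of 0.77. Mmp7, the Paneth protease, stood at 258 CPM (236 to 282) in the day 3 cells against 268 CPM (238 to 301) in the day 5 cells. Of other genes found high at day 3, Rnase1 had a ratio of day 3 over day 5 of -0.05, Ccl9 of -0.18, Tpsg1 of -0.27 and Reg4 of -0.32.

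Several products of goblet and Paneth granules were lower in the day 3 cells, and Clca1 was not. Clca1 stood at 379 CPM (352 to 407) in the day 3 and 293 CPM (262 to 327) in the day 5 cells, a log2 ratio of day 3 over day 5 of 0.37. Muc2 stood at 96.5 CPM (83.2 to 111) in the day 3 and 994 CPM (935 to 1055) in the day 5 cells, a log2 ratio of day 3 over day 5 of -3.36. Defa24 stood at 5398 CPM in the day 3 and 29094 CPM in the day 5 cells, a ratio of -2.43, and Zg16 at 282 CPM in the day 3 and 3862 CPM in the day 5 cells, a ratio of -3.78. Spink4 had a ratio of -1.38, Fcgbp of -1.13, Lyz1 of -0.91 and Tff3 of -0.31. Agr2 was on the other side, at 3950 CPM (3862 to 4038) in the day 3 and 1879 CPM (1799 to 1963) in the day 5 cells, a ratio of 1.07. Summed over the lists, goblet genes came to 2282 CPM in the day 3 and 7474 CPM in the day 5 cells, and Paneth genes to 7029 CPM in the day 3 and 40101 CPM in the day 5 cells. The cells outside the highest 55 also differed this way. There, goblet genes summed to 134 CPM at day 3 and 299.6 CPM at day 5, and Paneth genes to 128 CPM at day 3 and 986 CPM at day 5.

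Genes of division, regeneration and protein folding were higher in the day 3 cells. Genes of G2 and mitosis summed to 1347 CPM in the day 3 and 795 CPM in the day 5 cells, regenerating epithelium genes to 1777 CPM in the day 3 and 409.9 CPM in the day 5 cells, and endoplasmic reticulum genes to 7881 CPM in the day 3 and 4381 CPM in the day 5 cells. The cells outside the highest 55 of each library differed in the same sense. There, genes of G2 and mitosis summed to 1581 CPM at day 3 and 709 CPM at day 5, regenerating epithelium genes to 3343 CPM at day 3 and 437 CPM at day 5, and endoplasmic reticulum genes to 4702 CPM at day 3 and 3238 CPM at day 5. Neurog3 was found in 10 of the day 3 cells and in 0 of the 55 day 5 cells, which allows up to 2.78 CPM (3 UMIs in their sum). Chgb stood at 5.58 CPM in the day 3 and 191 CPM (165 to 219) in the day 5 cells, where 6 cells held it.

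**Figure D5:**
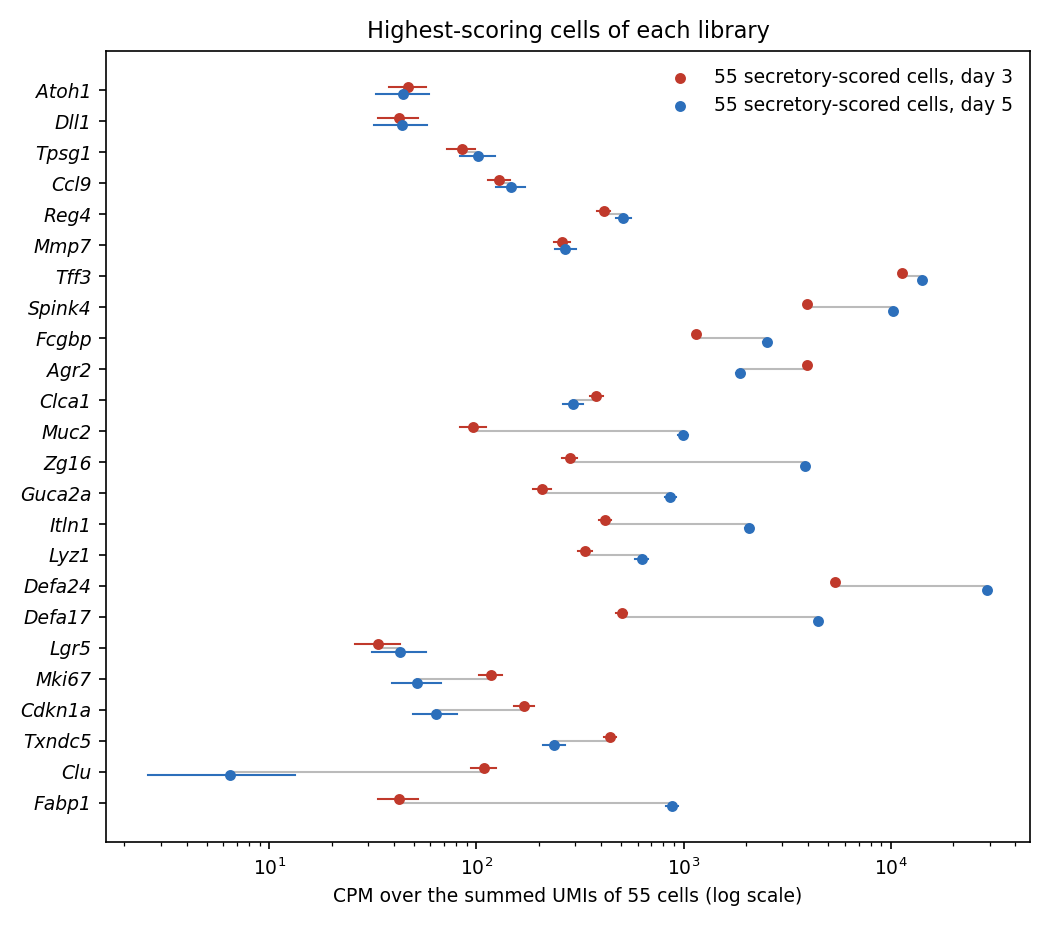
CPM over the summed UMIs of the 55 highest-scoring cells at day 3 (red) and at day 5 (blue) for 24 genes, on a log scale, with exact Poisson 95% intervals as horizontal lines. Atoh1, Dll1 and Mmp7 coincide, Muc2, Zg16, Defa24 and Defa17 lie lower at day 3, and Clu, Mki67 and Agr2 lie higher at day 3.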

How the data were processed

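Gene expression was measured in single cells by droplet 3′ RNA sequencing with UMIs, in 1 library per day. The authors deposited whole-number UMI counts of 1863 cells and 15745 genes. The submitters' processing notes name Cell Ranger 1.3.0 and mm10. A filter on genes or cells is not given in the sources used here. Log2 values as deposited equal log2(x + 1), where x is the count over a size factor, the cell's total relative to the mean total. Cells were assigned to a day by the prefix of their column. Column names carry cell numbers and no barcodes, so barcodes shared between libraries could not be counted.

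Gene identifiers were matched to symbols for 15681 genes. Gene positions are those of GENCODE M21 (GRCm38, which is mm10), and promoters from RefSeq on GRCm38.p6. UMIs were summed over groups of cells, scaled to CPM with exact Poisson 95% intervals, and compared as a log2 ratio with 0.5 UMI added to each sum. A gene with at least 100 UMIs at day 3 counted as higher or lower from 2-fold on. Shares carry exact Clopper-Pearson intervals. With 1 library per day, no test or p-value was possible.

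Genes named are the 9 score genes, the 15 highest and 10 lowest by log2 ratio, the 3 highest and 2 lowest of each of 20 lists, and 6 fixed genes. Predicted, ribosomal and mitochondrial genes were left out of the highest and lowest, as were genes with most of their secretory-scored UMIs in 1 cell. Others are named as list members or within subsets. A gene that this rule takes is not reported here. The cells and the lists were chosen with earlier results of these data known. Called doublets were kept. The 2-fold rule and the intervals of ratios were tested on simulated Poisson counts, which have no spread between cells. Python 3.11.15, numpy 2.4.6, pandas 2.3.3, scipy 1.17.1, scanpy 1.11.5, matplotlib 3.10.9 and edgeR 4.0.16 (TMM factors) were used.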

Additional observations from a re-analysis of the deposited data

How the results depend on the processing

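No paired analysis was possible because each day has 1 library and no test was made. The count of genes at least 2-fold higher was 168, with 79 at a minimum of 300 UMIs and 360 at 30. The count at least 2-fold lower was 306, with 134 at 300 UMIs, 541 at 30, 474 with the 40 highest cells, 186 with the 70 highest and 560 without the richest secretory-scored cell of each gene. The goblet median was 2.96 at 300 UMIs, 5.14 with 70 cells and 4.89 without the richest cell. The Paneth median was 4.57 and that of the endoplasmic reticulum list 0.889 with 40 cells, and the regenerating epithelium median was -1.71 without the richest cell. No list median past 2-fold changed sign, but 3 medians under 2-fold did. The M cell median was -0.06 at 300 UMIs, the Notch receptor median 0.02 with the 5 Chgb-rich cells, and the low oxygen median was -0.02 at 30 UMIs, -0.03 without Lyz1 in the score and -0.08 without the richest cell. Ratios that changed sign were Cck (-2.51) and Defa30 (-0.43) with 40 cells, and Cck (-2.23) without the richest cell. Chgb changed sign with 70 cells (4.55), without Tff3 (2.62) or Fcgbp (2.71) in the score, with z-scores (5.98), without the next 55 cells (0.849) and with the 5 Chgb-rich cells (5.86). Gcg did so with 70 cells (5.66), z-scores (6.00), without the next 55 cells (0.433) and with the 5 Chgb-rich cells (5.89). The genes 2-fold higher in the 8 endocrine-scored cells numbered 298 at 20 UMIs and 94 with cells weighed alike, against 57. Thinned to 17000 UMIs, shares of secretory-scored cells were 47.3% for Atoh1, 43.6% for Muc2, 58.2% for Tpsg1, 49.1% for Dll1 and 52.7% for Lyz1. TMM factors moved the median of all genes from -0.09 to -0.03. The cause of each change was not tested, beyond what an alternative's own construction shows (fewer genes, other cells). Depth limits genes with few UMIs, since 0 UMIs in the 55 cells allows up to 1.52 CPM. One library per day leaves differences between cultures unmeasured.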
